A study of Mus musculus with 75 samples.

Results

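The genes described here were 31 genes of cholesterol and lipid synthesis, taken by symbol from a list of sterol and fatty acid synthesis genes that was drawn up with earlier results of these data known. They were looked up in 3 gene count tables from RNA-seq, with 52535, 52535 and 52636 entries, and all 31 passed the filter on low counts in each table. By role they were 8 genes of the mevalonate and isoprenoid steps, 3 of the steps that lead to lanosterol, 8 of the steps from lanosterol to cholesterol, 4 regulators of sterol regulatory element-binding protein (SREBP), 1 sterol carrier, 6 genes of fatty acid synthesis and 1 phosphatidate phosphatase.

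The series compared mouse E14 embryonic stem cells, a line derived from the blastocyst, after loss or gain of retinoic acid receptors and after deletion of enhancers called Cyp26-E1 and Cyp26-E2. All 23 RNA-seq libraries used here, of 75 samples in the series, came from cells that had been moved out of LIF and 2i medium into 2 µM retinoic acid (RA) for 24 h, so no untreated cells entered any comparison. The receptor knockout table held Rarα-KO, Rxrα-KO and RARX-DKO cells, labelled as double knockouts, and WT-RARX cells, with 2 libraries a group and library totals of 7408691 to 13052102. The overexpression table held Rarα-OE and Rxrα-OE cells and V-OE cells, taken as the vector control, again in pairs, with totals of 7835519 to 11453063. The enhancer table held Cyp26-E1-KO, Cyp26-E2-KO and WT-Cyp26 cells (3 libraries a group), with totals of 28397794 to 33601996. The labels do not give the promoter of the overexpression vector, the coordinates of the deletions or whether a group is 1 clone. Titles of the Cyp26-E2 libraries name the enhancer without the letters KO, and the codes of the columns were matched to the 2 deletions through similar codes in the contact tables, so which column belongs to which deletion is not certain.

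Cells build cholesterol from acetyl-CoA through mevalonate, squalene and lanosterol, and build fatty acids from citrate by way of malonyl-CoA. SREBP transcription factors are held in the endoplasmic reticulum by INSIG proteins and are carried by SCAP to the Golgi when sterols run low, after which they switch on genes of both routes. RA acts through heterodimers of retinoic acid receptors (RAR) and retinoid X receptors (RXR), and RXR also pairs with liver X receptors, which are known activators of Srebf1 and Scd1 in liver. CYP26A1 degrades RA.

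The promoters of the members that passed the test most often are shown because they are the DNA from which the moving transcripts start. They come from RefSeq on GRCm38.p6, which held 31 promoters of 25 of the 31 genes. Fdps, Fdft1, Sqle, Stard4, Scd1 and Scd2 were not matched. Capitals mark a sterol regulatory element (TCACNCCAC), a CCAAT box (CCAAT) or a GC box (GGGCGG), searched on both strands in the 250 bases before and the 50 after each start. Srebf1, the SREBP-1 gene on chromosome 11, has 3 annotated starts that gene counts do not separate. Hmgcs1, the cytosolic HMG-CoA synthase gene, was added after the letters were read because it held the sterol regulatory element.
Hmgcs1 promoter, chr13:119690101-119690400, plus strand: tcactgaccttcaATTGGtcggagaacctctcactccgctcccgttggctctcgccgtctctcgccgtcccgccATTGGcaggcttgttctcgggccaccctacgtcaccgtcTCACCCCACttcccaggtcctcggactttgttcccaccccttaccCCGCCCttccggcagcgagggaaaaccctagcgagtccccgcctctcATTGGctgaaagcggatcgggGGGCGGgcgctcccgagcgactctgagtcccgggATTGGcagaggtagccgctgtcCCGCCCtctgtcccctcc
Srebf1 promoter, chr11:60210422-60210721, minus strand: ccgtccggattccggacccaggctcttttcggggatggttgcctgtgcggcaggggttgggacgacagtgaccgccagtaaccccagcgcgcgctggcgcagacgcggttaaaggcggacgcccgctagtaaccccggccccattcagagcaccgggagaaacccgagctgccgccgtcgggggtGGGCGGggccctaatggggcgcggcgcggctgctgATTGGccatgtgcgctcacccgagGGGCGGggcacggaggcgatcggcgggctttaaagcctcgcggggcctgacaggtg
Srebf1 promoter, chr11:60220578-60220877, minus strand: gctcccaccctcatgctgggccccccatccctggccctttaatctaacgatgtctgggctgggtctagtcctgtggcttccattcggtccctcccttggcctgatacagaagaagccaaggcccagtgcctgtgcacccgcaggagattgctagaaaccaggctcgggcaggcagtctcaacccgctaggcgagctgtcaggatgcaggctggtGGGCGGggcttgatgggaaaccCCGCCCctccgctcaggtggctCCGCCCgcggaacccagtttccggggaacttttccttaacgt
Srebf1 promoter, chr11:60222532-60222831, minus strand: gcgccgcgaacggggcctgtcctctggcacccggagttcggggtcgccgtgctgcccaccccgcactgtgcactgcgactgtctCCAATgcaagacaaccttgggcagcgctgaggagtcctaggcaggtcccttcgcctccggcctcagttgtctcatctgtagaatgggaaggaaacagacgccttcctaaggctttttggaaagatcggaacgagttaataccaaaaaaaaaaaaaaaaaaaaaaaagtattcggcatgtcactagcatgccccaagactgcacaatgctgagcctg
Lpin1 promoter, chr12:16610917-16611216, minus strand: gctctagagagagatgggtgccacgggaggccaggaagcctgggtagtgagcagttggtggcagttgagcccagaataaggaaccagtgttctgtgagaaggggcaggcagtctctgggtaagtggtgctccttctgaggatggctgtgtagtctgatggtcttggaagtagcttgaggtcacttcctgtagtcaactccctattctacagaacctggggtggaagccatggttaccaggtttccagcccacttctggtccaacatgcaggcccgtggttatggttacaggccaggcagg
Elovl6 promoter, chr3:129532136-129532435, plus strand: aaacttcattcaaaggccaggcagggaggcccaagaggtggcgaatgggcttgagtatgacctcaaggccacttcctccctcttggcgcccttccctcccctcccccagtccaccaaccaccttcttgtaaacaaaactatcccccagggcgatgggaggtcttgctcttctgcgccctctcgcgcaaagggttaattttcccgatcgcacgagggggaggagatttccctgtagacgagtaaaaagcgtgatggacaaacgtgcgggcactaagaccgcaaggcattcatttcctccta
Acat2 promoter, chr17:12960676-12960975, minus strand: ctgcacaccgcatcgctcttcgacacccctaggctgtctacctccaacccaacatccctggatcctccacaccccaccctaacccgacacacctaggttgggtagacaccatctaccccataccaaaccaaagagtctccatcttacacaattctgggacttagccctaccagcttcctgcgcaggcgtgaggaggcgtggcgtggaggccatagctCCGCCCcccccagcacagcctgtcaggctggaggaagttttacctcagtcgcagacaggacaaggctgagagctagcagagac
The sterol regulatory element stood in 1 of the 31 member promoters, that of Hmgcs1, and in 1.24% of 32851 promoters of all genes. The CCAAT box stood in 21 of the 31, or 67.7%, and in 37.4% of all promoters. The GC box stood in 22 of the 31, or 71%, and in 35.7% of all. Direct repeats of AGGTCA spaced by 4 or 5 bases, an arrangement that RXR heterodimers bind, had no match among the 31 and matched 0.0152% and 0.00913% of all promoters. Only exact copies were searched, and with 5 and 3 matches among all 32851 promoters none was likely among 31. Whether RXR heterodimers bind these promoters cannot be read from that search. These shares describe letters within short windows.

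Levels per length spanned more than 100-fold among members. In RPKM, which divides by exon length and library size, Scd2, a desaturase that makes oleate and palmitoleate, stood at 109.6 ± 4.57 in WT-RARX, 96.6 ± 0.0709 in V-OE and 315 ± 0.63 in WT-Cyp26 cells (SD, n = 2, 2 and 3). Acly, which splits citrate into acetyl-CoA, had 93, 114 and 116 RPKM in the same groups. Fdps, farnesyl diphosphate synthase, was lowest at 0.58, 0.66 and 0.71 RPKM. Near-identical stretches in 6 other genes cover 91.4% of the Fdps transcript, so its level is uncertain. The 3 tables were scaled separately, and levels are compared within a table in all that follows.

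**Figure D1:**
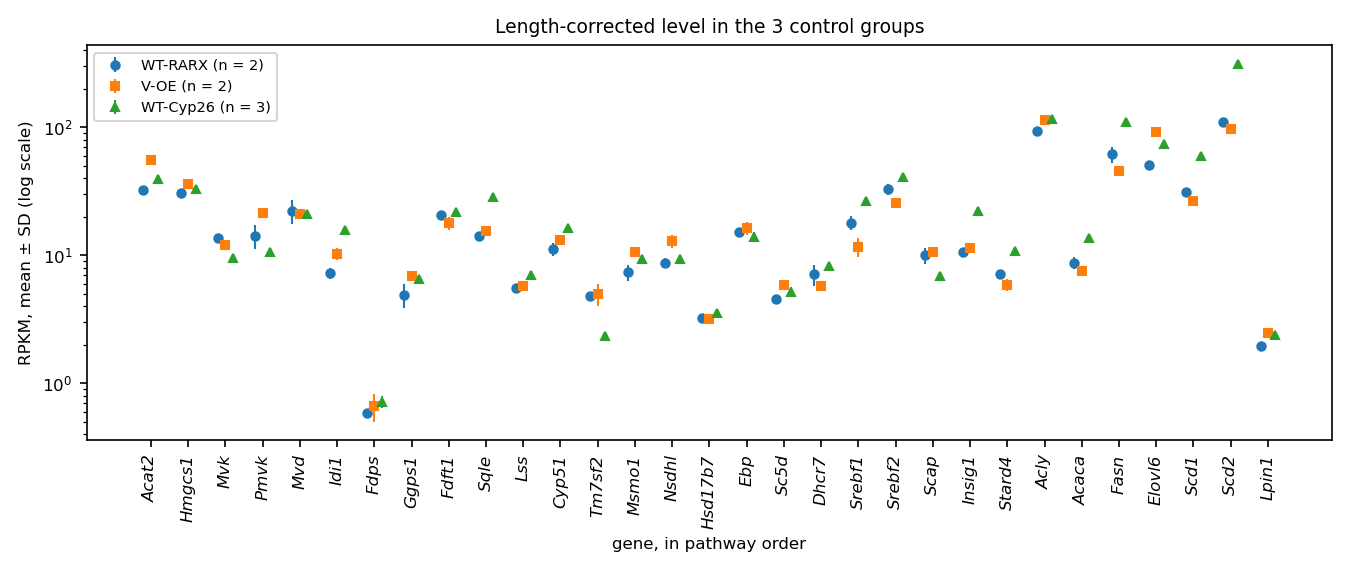
Mean level per length of each member in the WT-RARX, V-OE and WT-Cyp26 control groups, in RPKM on a log scale, with bars of 1 SD and genes in pathway order. Scd2 and Acly are the highest in WT-RARX and WT-Cyp26 cells, Acly and Scd2 in V-OE cells, and Fdps is the lowest in each.

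Before the comparisons, the targeted genes were checked. Levels are given as CPM, counts scaled to a common library size. Rara had 5.35 and 4.37 CPM in Rarα-KO and 5.57 and 6.53 in RARX-DKO cells, against 100.1 and 109 in WT-RARX cells. Rxra had 18.4 and 16.1 CPM in Rxrα-KO cells and 13.6 and 27.6 in RARX-DKO cells, against 38.2 and 46 in WT-RARX cells, and its fall in RARX-DKO cells missed the threshold. Rara reached 105 and 111 CPM in Rarα-OE cells, against 51.6 and 52.4 in V-OE cells, and Rxra reached 202 and 204 CPM in Rxrα-OE cells, against 45.7 and 42.9. Cyp26a1 had 55.8, 33.8 and 58.8 CPM in Cyp26-E1-KO and 387, 363 and 391 in Cyp26-E2-KO cells, against 378, 368 and 385 in WT-Cyp26 cells. Some libraries stood apart. Cyp26-E1-KO replicate 2 differed from its group mates by 18.7 to 20.3 times the counting variance, while the other 7 pairs within a group of that table differed by 3.89 to 6.62 times. In the knockout table, Rarα-KO replicate 2 lay closer to RARX-DKO replicate 1 (2.91 times the counting variance) than to Rarα-KO replicate 1 (5.16 times).

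In the receptor knockouts the 2 stearoyl-CoA desaturase genes were the members that fell. Scd1, the main inducible desaturase of liver and fat, had 78.2 and 65.7 CPM in Rxrα-KO cells and 71.8 and 60.6 in RARX-DKO cells, against 146 and 162 CPM in WT-RARX cells. Rarα-KO cells had 139.8 and 117 CPM, so every Rxrα-KO and RARX-DKO library was below every Rarα-KO and WT-RARX library. By edgeR's quasi-likelihood test with Benjamini-Hochberg adjustment over 16445 genes, Scd1 fell by 1.09 ± 0.16 (standard error, as for every fold change here) on the log2 scale in Rxrα-KO cells (adjusted p = 0.0034) and by 1.21 ± 0.16 in RARX-DKO cells (adjusted p = 0.0016). It was also lower in Rxrα-KO than in Rarα-KO cells, with a log2 fold change of -0.84 ± 0.16 (adjusted p = 0.0098). In Rarα-KO against WT-RARX cells the log2 fold change was -0.26 (95% interval -0.56 to 0.04, adjusted p = 0.58). RARX-DKO and Rxrα-KO cells differed by -0.12 on the log2 scale, with a 95% interval of -0.43 to 0.19.

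Scd2 lies 87.6 kb from Scd1 on chromosome 19. It had 297 and 383 CPM in RARX-DKO cells, against 617 and 581 in WT-RARX cells, and fell by 0.82 ± 0.15 on the log2 scale (edgeR adjusted p = 0.012). In Rxrα-KO cells it had 435 and 365 CPM and a log2 fold change of -0.58 (adjusted p = 0.059). In Rarα-KO cells it had 443 and 446 CPM and a log2 fold change of -0.43 (adjusted p = 0.26). All 6 knockout libraries were below both WT-RARX libraries. Pairs that did not overlap with WT-RARX were common, for 17 of the 31 members in Rarα-KO, 13 in Rxrα-KO and 17 in RARX-DKO cells. Their share over all genes was not counted. The genes within 1 Mb of the pair, 21 or 22 with at least 5 CPM in WT-RARX cells, had median log2 ratios to the WT-RARX mean between -0.13 and 0.02 in the knockout libraries.

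Over the 31 members, 0 passed in Rarα-KO against WT-RARX cells, where 0.645% of all genes did (0.389% higher and 0.255% lower). At an unadjusted p under 0.05 there were 4, beside 1805 of the 16445 genes tested. DESeq2 called 0 members, beside 269 genes. In Rxrα-KO cells 1 passed and was lower, beside 2.47% of all genes (1.28% higher and 1.2% lower). In RARX-DKO cells 2 passed and were lower, beside 2.24% (1.05% higher and 1.19% lower). These shares of all genes rest on single libraries too: without WT-RARX replicate 2 the genes called were 8 instead of 106 in Rarα-KO, 21 instead of 407 in Rxrα-KO and 32 instead of 368 in RARX-DKO cells. Of mutants against each other, Rxrα-KO against Rarα-KO cells gave 1 lower member, beside 5.38% of all genes (2.19% higher and 3.19% lower), or 885 genes, which became 111 without Rarα-KO replicate 2. RARX-DKO gave 0 against Rarα-KO, beside 0.0122% of all genes, and 0 against Rxrα-KO cells, beside 3.5% (2.01% higher and 1.48% lower). At an unadjusted p under 0.05 these last comparisons had 2 and 4 members, beside 563 and 3001 of all genes. DESeq2 called 1 in each, Scd1 and Fdft1 in turn, beside 19 and 813 genes. No member passed the test of whether the loss of both receptors departed from the sum of the single losses (0% of all genes). That test had 1 member at an unadjusted p under 0.05, beside 1083 genes, and DESeq2 called 0 members, beside 45 genes. The median log2 fold change of the members was -0.07 in Rarα-KO, -0.05 in Rxrα-KO and -0.13 in RARX-DKO cells, while that of all genes was within 0.01 of 0. The desaturase calls are sensitive to single libraries. Without WT-RARX replicate 2, Scd1 missed the threshold in Rxrα-KO (adjusted p = 0.101) and RARX-DKO cells (adjusted p = 0.0532). Scd2 in RARX-DKO cells missed it without either WT-RARX library or without RARX-DKO replicate 1 (adjusted p up to 0.163), and Scd1 in Rxrα-KO against Rarα-KO cells without Rarα-KO replicate 1 or Rxrα-KO replicate 2 (up to 0.0746).

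Fdft1, squalene synthase and the first step committed to sterols, had the lowest log2 fold change of any member in Rarα-KO and RARX-DKO cells and did not pass. Its level was 32.6 and 29.2 CPM in RARX-DKO cells, 90.4 and 98.3 in Rxrα-KO cells and 76.5 and 30.1 in Rarα-KO cells, against 83.6 and 91.5 in WT-RARX cells. Low values were thus found in both RARX-DKO libraries and in Rarα-KO replicate 2, and the Rarα-KO pair stood apart from each other. The log2 fold change in RARX-DKO cells was -1.50 ± 0.36 (edgeR adjusted p = 0.086), and DESeq2 gave an adjusted p of 0.0385. Most genes around Fdft1 on chromosome 14 were also low in those libraries: of 14 others within 1 Mb, 12 in Rarα-KO replicate 2, 12 in RARX-DKO replicate 1 and 13 in RARX-DKO replicate 2 had a log2 ratio to the WT-RARX mean of -0.5 or less, against 5 in Rarα-KO replicate 1. Pinx1 was above the WT-RARX mean in all 3, and the endoderm marker Sox7 was at -0.06 in Rarα-KO replicate 2 and -1.28 in Rarα-KO replicate 1. Over the 14 genes the median log2 ratio to the WT-RARX mean was -1.05 in Rarα-KO replicate 2, -1.26 in RARX-DKO replicate 1 and -1.10 in RARX-DKO replicate 2. It was -0.05 in Rarα-KO replicate 1 and 0.15 and 0.19 in the Rxrα-KO libraries. Near-identical stretches in 2 other genes cover 54.7% of the Fdft1 transcript, and Ctsb overlaps it on the other strand. The part that the neighbourhood plays in the low Fdft1 counts was not tested.

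**Figure D2:**
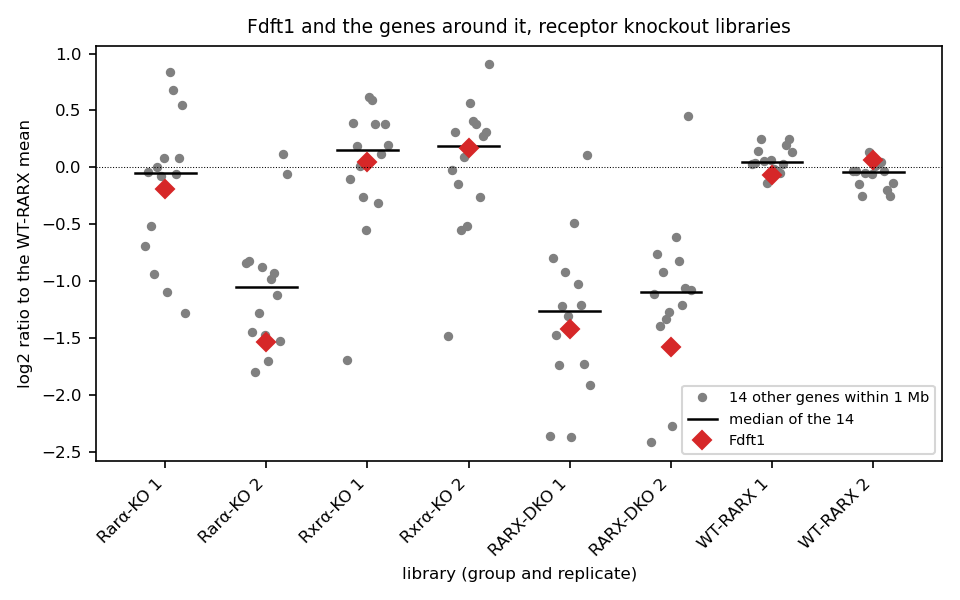
Log2 ratio of each library's level to the WT-RARX mean for Fdft1 (red diamonds) and for 14 other genes within 1 Mb of it (grey points, with their median as a line), in the 8 libraries of the receptor knockout table. Fdft1 is at -1.54, -1.42 and -1.58 in Rarα-KO replicate 2 and the RARX-DKO pair, where the neighbours' medians are also below -1, and is within 0.2 of 0 in the other libraries.

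Fdps had 0.909 and 0.816 CPM in RARX-DKO cells, against 2.58 and 2.3 in WT-RARX cells, with a log2 fold change of -1.48 ± 0.50 that did not pass (edgeR adjusted p = 0.166). The groups did not overlap, as was so for 17 of the 31 members in this comparison. In the same table the SREBP regulators and Lpin1 had no call. Srebf1 had 72 and 80.2 CPM in Rxrα-KO and 74.7 and 70.6 in RARX-DKO cells, against 92.1 and 109.8 in WT-RARX cells, with log2 fold changes of -0.41 and -0.48 (edgeR adjusted p = 0.198 and 0.146). Both knockout pairs were below the WT-RARX pair, in comparisons where 13 and 17 of the 31 members in turn had pairs that did not overlap. Of 8 stem cell markers all were found, and their summed level was 6719 to 8253 CPM in Rarα-KO, 6738 to 6780 in Rxrα-KO and 7298 to 7724 in RARX-DKO cells, against 5654 to 5774 in WT-RARX cells. That of 8 extraembryonic endoderm markers was 143 to 184 CPM in Rarα-KO, 319 to 338 in Rxrα-KO and 126 to 147 in RARX-DKO cells, against 228 to 251 in WT-RARX cells. Neuroectoderm markers summed to 63.6 to 68.6 CPM in Rarα-KO, 49.6 to 74.8 in Rxrα-KO and 72.7 to 99.0 in RARX-DKO cells, against 44.3 to 48.5 in WT-RARX cells. Trophoblast markers summed to 72.4 to 87.3 CPM in Rarα-KO, 50.2 to 103 in Rxrα-KO and 56.6 to 73.3 in RARX-DKO cells, against 87.6 to 94.4 in WT-RARX cells. Their part in the desaturase values was not tested. Fewer cells of a type and less RNA per cell cannot be told apart in such bulk samples.

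Overexpression of either receptor moved members in both directions. In Rarα-OE against V-OE cells 11 of the 31 passed, 7 higher and 4 lower, where 28.6% of all genes passed (14.7% higher and 13.9% lower). In Rxrα-OE cells 19 passed, 12 higher and 7 lower, where 60.2% of all genes did (30.9% higher and 29.3% lower). The members' median log2 fold change was 0.02 in Rarα-OE and 0.07 in Rxrα-OE cells. Libraries did not overlap with V-OE for 20 of the 31 members in Rarα-OE and 24 in Rxrα-OE cells. The share of all genes without overlap was not counted. What follows describes single genes, and the plot of fold changes with errors shows them all.

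**Figure D3:**
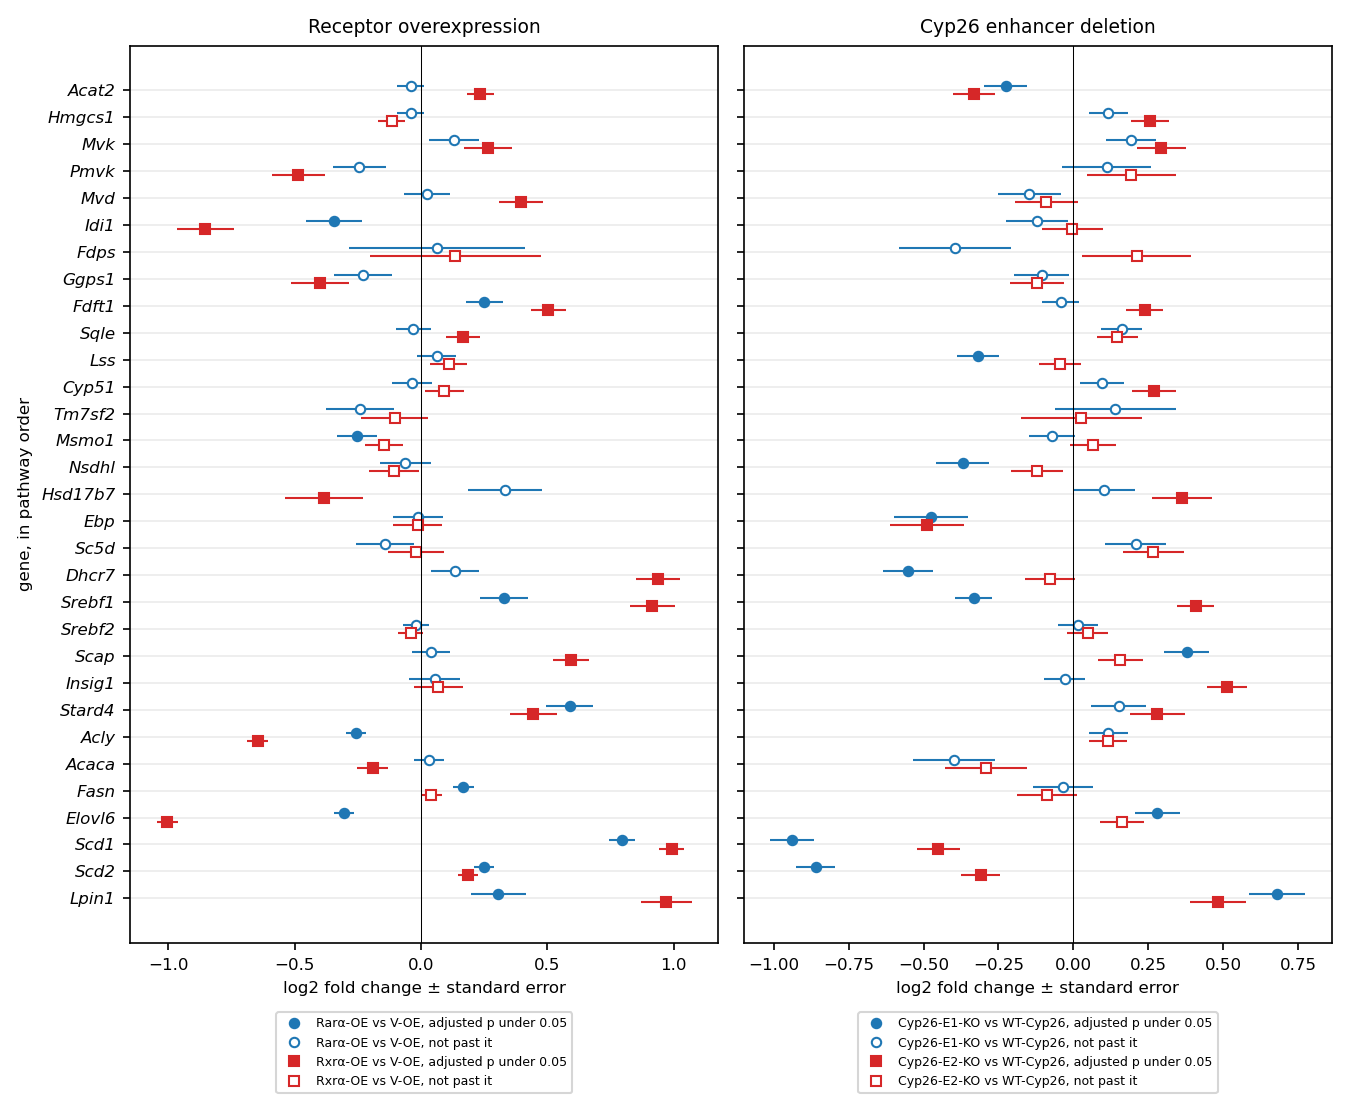
Log2 fold change with its standard error for each member, left in Rarα-OE (blue) and Rxrα-OE (red) against V-OE cells, right in Cyp26-E1-KO (blue) and Cyp26-E2-KO (red) against WT-Cyp26 cells. Filled symbols passed at an adjusted p under 0.05. Scd1 is at 0.80 and 0.99 under overexpression and at -0.94 and -0.45 in the deletions.

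Among fatty acid genes both desaturases rose, and Elovl6 and Acly fell. Scd1 had 227 and 228 CPM in Rarα-OE cells and 259 and 262 in Rxrα-OE cells, against 131 and 131 in V-OE cells. The 3 groups did not overlap, and the log2 fold change was 0.80 ± 0.05 in Rarα-OE (adjusted p = 2.5e-19) and 0.99 ± 0.05 in Rxrα-OE cells (adjusted p = 9.7e-25) by edgeR's quasi-likelihood test. The genes within 1 Mb of Scd1 had median log2 ratios to the V-OE mean of 0.04 and -0.02 in Rarα-OE and 0.20 and 0.18 in Rxrα-OE libraries. Scd2 rose by 0.25 ± 0.04 and 0.18 ± 0.04 on the log2 scale. Elovl6, which lengthens palmitate to stearate, had 480.4 and 474 CPM in Rarα-OE cells and 299 and 289.6 in Rxrα-OE cells, against 577 and 602 in V-OE cells. Its log2 fold change was -0.31 ± 0.04 in Rarα-OE cells (edgeR adjusted p = 2.2e-08), and its level was 2.01-fold lower in Rxrα-OE cells (adjusted p = 3.3e-28). Acly had 499 and 511 CPM in Rarα-OE cells and 377 and 394 in Rxrα-OE cells, against 612 and 595 in V-OE cells, so that it fell by 0.26 and 0.65 on the log2 scale. For Elovl6 and Acly the order of the groups was the same, with Rxrα-OE lowest and V-OE highest and no overlap. Acaca, which makes malonyl-CoA, fell by 0.19 in Rxrα-OE cells, and Fasn, which assembles palmitate, rose by 0.17 in Rarα-OE cells.

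Of the 4 SREBP regulators among the members, 2 rose in Rxrα-OE cells and 1 in Rarα-OE cells. Of 3 other genes of SREBP processing, 1 rose and 1 fell (log2 fold change -0.92) in Rxrα-OE cells. In Rarα-OE cells 1 of these 3 rose. Of all genes 60.2% passed in Rxrα-OE and 28.6% in Rarα-OE cells. Srebf1 had 75.5 and 88.4 CPM in Rarα-OE cells and 124 and 122 in Rxrα-OE cells, against 73.1 and 57.5 in V-OE cells. It rose by 0.33 ± 0.09 in Rarα-OE and by 0.91 ± 0.09 on the log2 scale in Rxrα-OE cells (edgeR adjusted p = 0.012 and 2.1e-08). Rai1 overlaps Srebf1 on the other strand, and reads of the pair cannot be told apart without strand. Scap, the sterol sensor that escorts SREBP, had 77.6 and 84.7 CPM in Rarα-OE cells and 111 and 126 in Rxrα-OE cells, against 84.2 and 73.7 in V-OE cells. It rose by 0.59 ± 0.07 in Rxrα-OE cells (adjusted p = 2.5e-10), while its Rarα-OE and V-OE libraries overlapped. Srebf2, which codes for the SREBP most tied to sterol synthesis, had 181 and 180 CPM in Rarα-OE and 182 and 174 in Rxrα-OE cells, against 183 and 183 in V-OE cells, and did not pass. Nor did Insig1.

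Of the 8 mevalonate and isoprenoid genes, 3 rose and 3 fell in Rxrα-OE cells and 1 fell in Rarα-OE cells. The shares of all genes that passed were 60.2% and 28.6% in turn. Idi1, isopentenyl diphosphate isomerase, had 29.7 and 26.8 CPM in Rarα-OE cells and 18.9 and 20.8 in Rxrα-OE cells, against 39 and 33.2 in V-OE cells. The groups did not overlap, and Idi1 fell by 0.34 ± 0.11 and 0.85 ± 0.11 on the log2 scale (edgeR adjusted p = 0.013 and 3.2e-09). In Rxrα-OE cells Pmvk, phosphomevalonate kinase, fell by 0.49 and Ggps1, which makes geranylgeranyl diphosphate, fell by 0.40. Mvd, mevalonate diphosphate decarboxylase, rose by 0.40, Mvk, mevalonate kinase, by 0.27, and Acat2, the thiolase that starts the route, by 0.23. Acat2 has near-identical stretches with 2 other genes over 65.6% of its transcript.

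Of the 11 genes from squalene to cholesterol, 3 rose and 1 fell in Rxrα-OE cells and 1 rose and 1 fell in Rarα-OE cells. The shares of all genes that passed were 60.2% and 28.6% in turn. Dhcr7, the reductase that makes cholesterol from its last precursor, had 60.8 and 66.4 CPM in Rxrα-OE cells and 37.4 and 35.5 in Rarα-OE cells, against 33.3 and 33.1 in V-OE cells. Both Rxrα-OE libraries were above all others, and Dhcr7 rose by 0.94 ± 0.09 on the log2 scale (edgeR adjusted p = 6.8e-14). Fdft1 rose by 0.25 in Rarα-OE and by 0.50 in Rxrα-OE cells, and Sqle, the squalene epoxidase gene, rose by 0.17 in Rxrα-OE cells. Hsd17b7, a ketosteroid reductase of the route, fell by 0.38 in Rxrα-OE cells, and Msmo1, a methylsterol oxidase, fell by 0.25 in Rarα-OE cells. Lss, Cyp51, Tm7sf2, Nsdhl, Ebp and Sc5d passed in neither comparison. Stard4, a carrier of cholesterol between membranes, had 50.2 and 49.2 CPM in Rarα-OE and 45.7 and 44.5 in Rxrα-OE cells, against 30.6 and 35.4 in V-OE cells, and rose by 0.59 and 0.44.

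Lpin1, which dephosphorylates phosphatidate on the way to triglyceride and is also a nuclear coregulator, followed Srebf1 in the order of groups. Its level was 31 and 27.9 CPM in Rarα-OE and 44.9 and 48.8 in Rxrα-OE cells, against 23.9 and 24 in V-OE cells. It rose by 0.31 ± 0.11 and 0.97 ± 0.10 on the log2 scale (edgeR adjusted p = 0.027 and 2.6e-12). The groups did not overlap.

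Rxrα-OE and Rarα-OE cells were also compared directly. Here 15 members passed, 9 higher and 6 lower, where 47.2% of all genes did (23.8% higher and 23.4% lower). Dhcr7 (0.80), Lpin1 (0.67), Srebf1 (0.59), Scap (0.55), Mvd (0.38), Acat2 (0.28), Fdft1 (0.25), Sqle (0.20) and Scd1 (0.20) were higher in Rxrα-OE cells by the log2 fold changes given. Hsd17b7 (-0.72), Elovl6 (-0.70), Idi1 (-0.51), Acly (-0.39), Acaca (-0.22) and Fasn (-0.13) were lower. Markers moved with these groups. The summed level of 8 stem cell markers was 6841 to 6874 CPM in Rarα-OE and 2353 to 2389 in Rxrα-OE cells, against 8152 to 8372 in V-OE cells. That of 8 extraembryonic endoderm markers was 641 to 648 CPM in Rarα-OE and 911 to 914 in Rxrα-OE cells, against 178 to 181 in V-OE cells, and that of 5 trophoblast markers was 358 to 407 CPM in Rarα-OE and 394 to 416 in Rxrα-OE cells, against 86.9 to 92.5 in V-OE cells. Of 5 neuroectoderm markers the sum was 38.5 to 42.8 CPM in Rarα-OE and 26.95 to 27.39 in Rxrα-OE cells, against 72.8 to 82.3 in V-OE cells. The 6 fibroblast markers summed to 1.43 to 7.75 CPM over the libraries of the 3 tables, with Lum and Postn at 0 in all 3 overexpression groups. The part of these cell state markers in the lipid gene differences was not tested. Leaving out single libraries kept 5 of the 11 Rarα-OE calls (Stard4, Acly, Elovl6, Scd1 and Scd2). Each of the 4 libraries ended at least 1 of the others: Idi1 without V-OE replicate 1 or Rarα-OE replicate 2, Fdft1 and Msmo1 without V-OE replicate 2 or Rarα-OE replicate 1, Srebf1 without replicate 2 of either group, Fasn without Rarα-OE replicate 2, and Lpin1 without Rarα-OE replicate 1 or either V-OE library. Of the 19 Rxrα-OE calls 14 were kept. Acaca missed the threshold without Rxrα-OE replicate 2, Ggps1 without replicate 2 of either group, Mvk without either Rxrα-OE library or V-OE replicate 2, Sqle without either V-OE library or Rxrα-OE replicate 2, and Hsd17b7 without either Rxrα-OE library or V-OE replicate 1. Between Rxrα-OE and Rarα-OE cells Sqle missed it without either Rarα-OE library or Rxrα-OE replicate 2. Fasn missed it there without Rarα-OE replicate 2 or Rxrα-OE replicate 1, and Acaca without Rxrα-OE replicate 2. The other 12 kept their calls. DESeq2 did not call Idi1, Fdft1, Msmo1, Srebf1 and Lpin1 in Rarα-OE cells, nor Mvk, Sqle and Hsd17b7 in Rxrα-OE cells. With scaling by library totals the Rxrα-OE calls were 15 higher and 5 lower. Of all genes 6078 were then higher and 4064 lower, against 5230 and 4948.

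**Figure D4:**
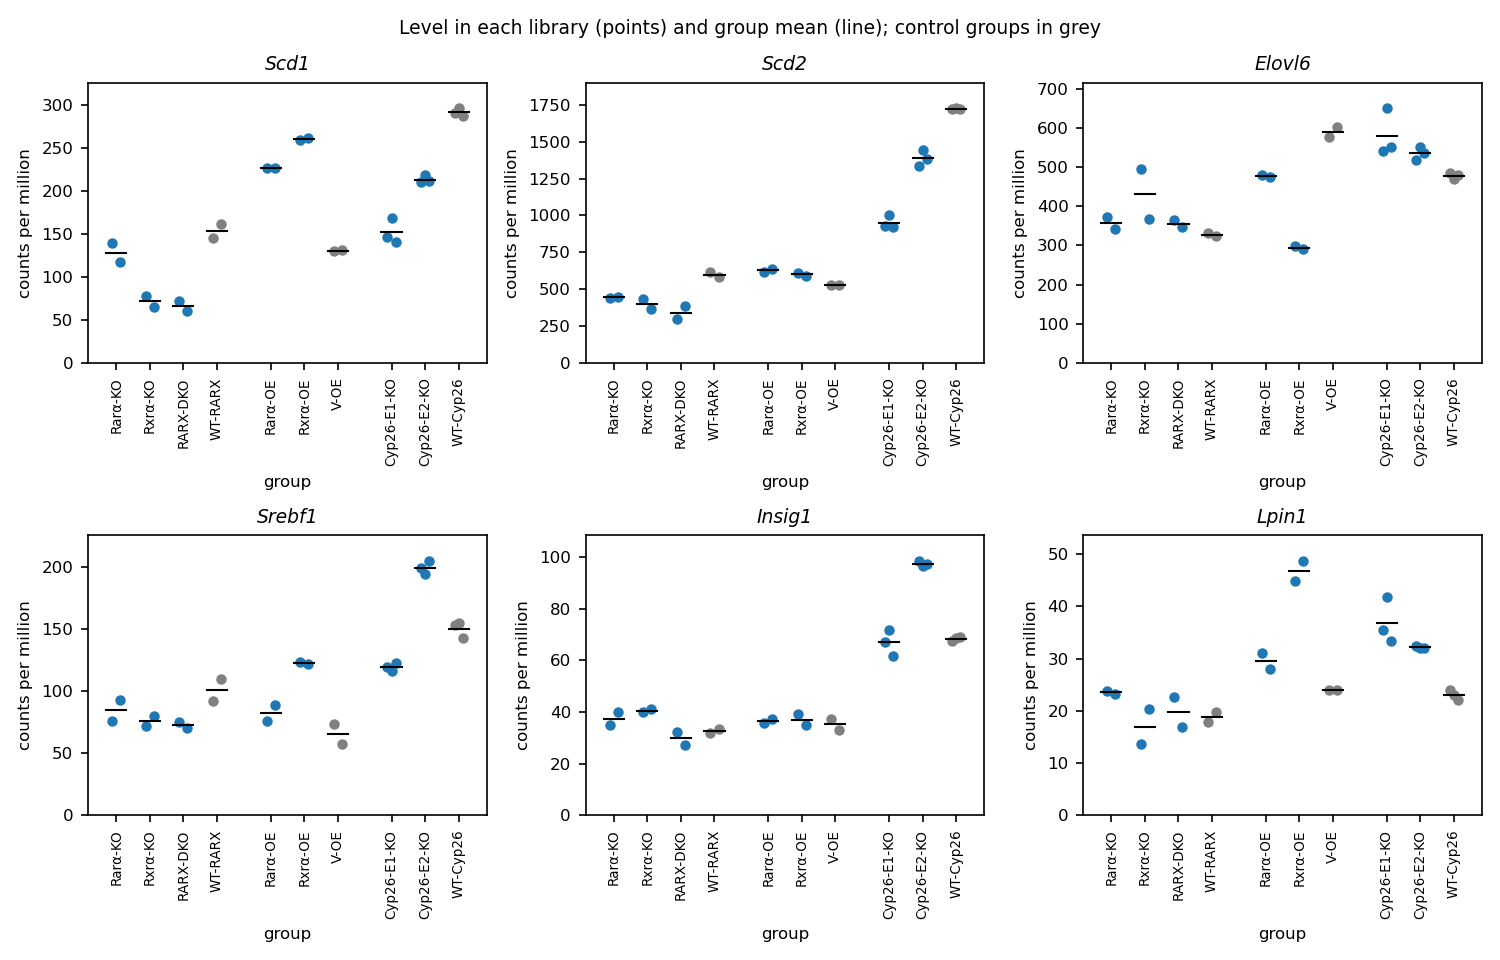
CPM in every library (points) and group mean (line) of Scd1, Scd2, Elovl6, Srebf1, Insig1 and Lpin1, with mutant groups in blue, control groups in grey and the 3 tables set apart along the axis. Scd1 is at 60.6 to 78.2 CPM in the Rxrα-KO and RARX-DKO libraries and at 227 to 262 in the overexpression libraries, and Srebf1 is at 116 to 123 in Cyp26-E1-KO and at 194 to 205 in Cyp26-E2-KO libraries.

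In the enhancer deletions both desaturases fell and Lpin1 rose. Scd1 had 147, 169 and 141 CPM in Cyp26-E1-KO and 211, 219 and 212 in Cyp26-E2-KO cells, against 292, 297 and 288 in WT-Cyp26 cells. The 3 groups did not overlap, and Scd1 fell by 0.94 ± 0.07 and 0.45 ± 0.07 on the log2 scale (edgeR adjusted p = 6e-07 and 0.0006). Scd2 had 928, 1001 and 918 CPM in Cyp26-E1-KO and 1337, 1447 and 1384 in Cyp26-E2-KO cells, against 1718, 1725 and 1722 in WT-Cyp26 cells. It fell by 0.86 ± 0.06 and 0.31 ± 0.06 (edgeR adjusted p = 5.3e-07 and 0.0042), again with no overlap. Scd1 and Scd2 lie 6.69 and 6.59 Mb from Cyp26a1 on chromosome 19. The 19 or 20 other genes within 1 Mb of them had median log2 ratios to the WT-Cyp26 mean between -0.13 and 0.04 in the deletion libraries. Lpin1 had 35.4, 41.8 and 33.4 CPM in Cyp26-E1-KO and 32.4, 32.1 and 32 in Cyp26-E2-KO cells, against 24.1, 22.9 and 22 in WT-Cyp26 cells, and rose by 0.68 ± 0.09 and 0.48 ± 0.09 (edgeR adjusted p = 0.00011 and 0.0027).

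Srebf1 moved in opposite directions. Its level was 119, 116 and 123 CPM in Cyp26-E1-KO and 199, 194 and 205 in Cyp26-E2-KO cells, against 153, 154 and 143 in WT-Cyp26 cells, with no overlap between the 3 groups. It fell by 0.33 ± 0.06 in Cyp26-E1-KO cells (edgeR adjusted p = 0.0012) and rose by 0.41 ± 0.06 in Cyp26-E2-KO cells (adjusted p = 0.0004). Insig1, a known SREBP target that holds SREBP back, had 98.6, 96.5 and 97.3 CPM in Cyp26-E2-KO and 67.3, 71.9 and 61.7 in Cyp26-E1-KO cells, against 67.7, 68.5 and 68.9 in WT-Cyp26 cells. It rose by 0.51 ± 0.07 in Cyp26-E2-KO cells (adjusted p = 0.00014), and its Cyp26-E1-KO and WT-Cyp26 libraries overlapped. Scap had 61.2, 73.3 and 66.5 CPM in Cyp26-E1-KO cells, against 52.8, 51.6 and 50.3 in WT-Cyp26 cells, and rose by 0.38 ± 0.08 (adjusted p = 0.0021). Srebf2 passed in neither deletion.

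Over the list, 11 of 31 members passed in Cyp26-E1-KO cells, 3 higher and 8 lower, beside 25.3% of all genes (13.1% higher and 12.1% lower). In Cyp26-E2-KO cells 13 passed, 9 higher and 4 lower, beside 17.5% of all genes (9.28% higher and 8.2% lower). The median log2 fold change of the members was -0.03 in Cyp26-E1-KO and 0.12 in Cyp26-E2-KO cells, and that of all genes was within 0.02 of 0. Libraries did not overlap with WT-Cyp26 for 16 of the 31 members in Cyp26-E1-KO and 22 in Cyp26-E2-KO cells. The share of all genes without overlap was not counted. In Cyp26-E1-KO cells 0 of the 19 sterol and isoprenoid enzymes rose, or 1 (Pmvk) without replicate 2 of that group, and Dhcr7 (-0.55), Ebp (-0.47), Nsdhl (-0.37), Lss (-0.32) and Acat2 (-0.23) fell. Ebp and Nsdhl act between lanosterol and cholesterol, and Lss closes the lanosterol ring. Elovl6 rose by 0.28 in these cells. In Cyp26-E2-KO cells Hsd17b7 (0.36), Mvk (0.29), Stard4 (0.28), Cyp51 (0.27), Hmgcs1 (0.26) and Fdft1 (0.24) rose and Ebp (-0.49) and Acat2 (-0.33) fell. Stard4 was at the threshold, with an edgeR adjusted p of 0.0495.

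Compared directly, Cyp26-E2-KO cells had 7 members above Cyp26-E1-KO cells and 0 below, where 4.49% of all genes passed (2.02% higher and 2.46% lower). The 7 were Srebf1 (log2 fold change 0.74 ± 0.06, edgeR adjusted p = 1.9e-05), Scd2 (0.55), Insig1 (0.54), Scd1 (0.49), Dhcr7 (0.47), Fdft1 (0.28) and Lss (0.27). Dhcr7 had 44.3, 43.9 and 46.7 CPM in Cyp26-E2-KO cells, against 35.8, 30.6 and 30.8 in Cyp26-E1-KO cells. At an unadjusted p under 0.05 there were 13 members, beside 3358 of the 18768 genes tested. DESeq2 called 7 members, beside 1357 genes.

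Cyp26-E1-KO replicate 2, the library that stood apart, changed several calls. Acaca had 149, 229.6 and 151 CPM in Cyp26-E1-KO cells, with replicate 2 inside the WT-Cyp26 values of 239, 228 and 231. Its log2 fold change was -0.40 (edgeR adjusted p = 0.053), and without replicate 2 it was -0.63, which passed. Fasn had 1031, 1420.2 and 1078 CPM, against 1212, 1251 and 1151 in WT-Cyp26 cells, and fell by 0.19 without replicate 2. Without that library 15 members passed in Cyp26-E1-KO cells, 4 higher and 11 lower, and the added calls were Acaca, Fasn and Idi1 (lower) and Pmvk (higher, log2 fold change 0.28). The genes called in all rose as well, to 6217 without that library, against 4741 with it. In the direct comparison of the deletions 12 passed without it, with Acaca, Cyp51, Hmgcs1, Msmo1 and Stard4 added. There the genes called in all were 1852, against 842. In Cyp26-E2-KO cells the count was 7 without WT-Cyp26 replicate 1 and 8 without Cyp26-E2-KO replicate 3. The genes called in all were then 2130 and 1978 in turn, against 3280. Srebf1, Insig1, Scd1, Scd2, Lpin1 and Acat2 kept their calls in Cyp26-E2-KO cells whichever library was left out. Mvk and Stard4 missed the threshold in Cyp26-E2-KO cells without any 1 of the 6 libraries, with an adjusted p up to 0.0823 and 0.202. Hmgcs1, Fdft1, Cyp51 and Hsd17b7 missed it there without WT-Cyp26 replicate 1 and without some others, and Ebp without WT-Cyp26 replicate 2 or Cyp26-E2-KO replicate 3. In Cyp26-E1-KO cells Ebp and Elovl6 missed it without WT-Cyp26 replicate 2, and Acat2 without any 1 of 4 libraries (adjusted p up to 0.153). In the direct comparison Fdft1 and Lss missed it without any 1 Cyp26-E2-KO library or without Cyp26-E1-KO replicate 3. Lss also missed it without Cyp26-E1-KO replicate 1. The summed stem cell markers were 2481 to 3545 CPM in Cyp26-E1-KO and 2977 to 3162 in Cyp26-E2-KO cells, against 3575 to 3707 in WT-Cyp26 cells. Endoderm markers summed to 597 to 637 CPM in Cyp26-E1-KO and 663 to 685 in Cyp26-E2-KO cells, against 502 to 535 in WT-Cyp26 cells. Trophoblast markers summed to 113 to 117 CPM in Cyp26-E1-KO and 92.9 to 104 in Cyp26-E2-KO cells, against 74.7 to 79.8 in WT-Cyp26 cells. Neuroectoderm markers summed to 82.3 to 87.6 CPM in Cyp26-E1-KO and 66.9 to 75.8 in Cyp26-E2-KO cells, against 78.2 to 78.7 in WT-Cyp26 cells. Their part in the lipid gene changes was not tested.

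Across the 7 comparisons of a mutant with its control, 4 members never passed, 12 passed in 1 comparison, 7 in 2, 4 in 3 (Fdft1, Acat2, Elovl6 and Stard4) and 2 in 4 (Srebf1 and Lpin1). Scd2 passed in 5 and Scd1 in 6. Comparisons within a table share their control libraries. The share of all genes that passed ran from 0.645% in Rarα-KO to 60.2% in Rxrα-OE cells. No such tally was made over all genes, so how usual these numbers of passes are is not known. The direction of Scd1 was lower in the 4 knockout or deletion comparisons it passed and higher in both overexpression comparisons, as the map of fold changes shows.

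**Figure D5:**
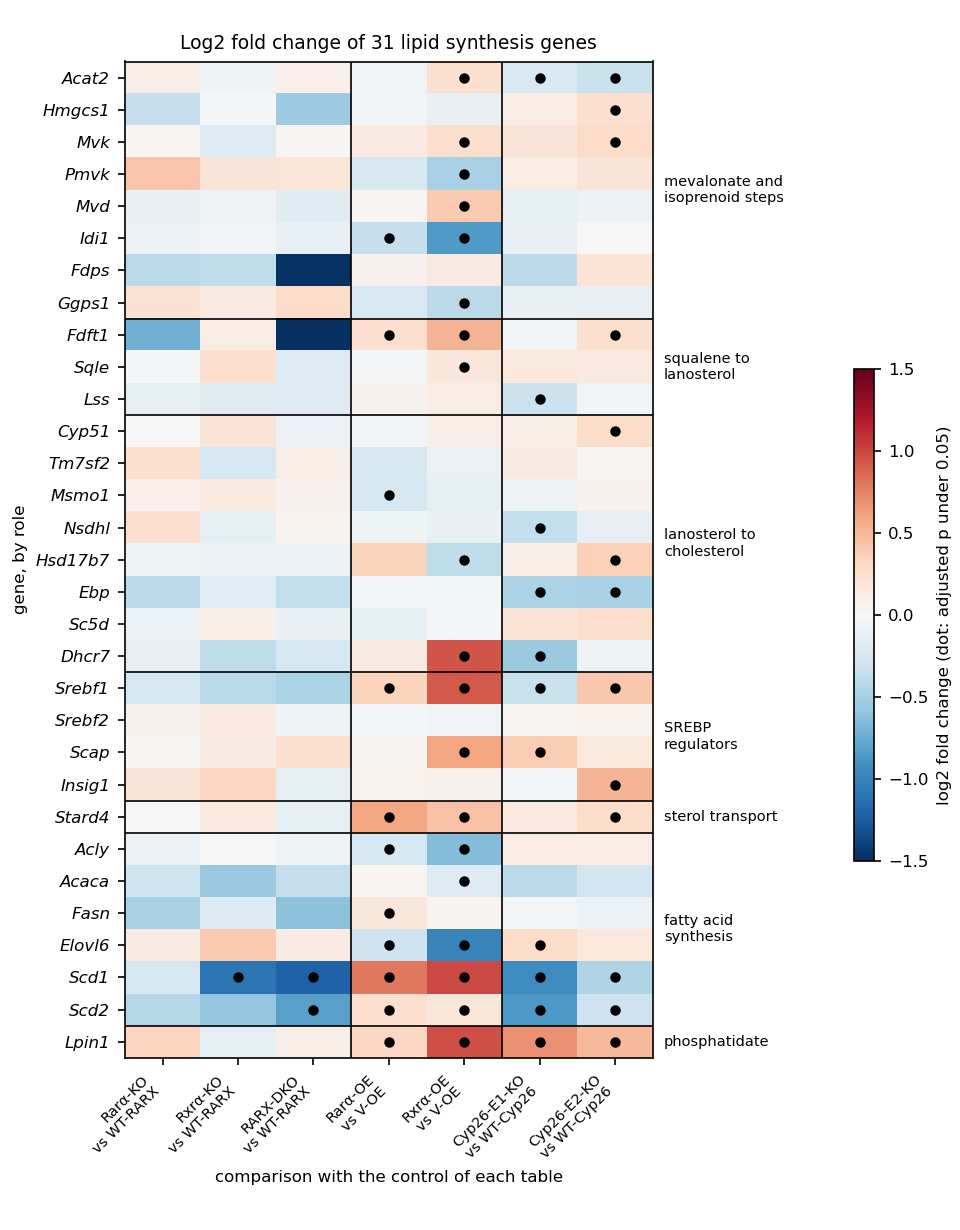
Log2 fold change of the 31 members (rows of the map, by role) in the 7 comparisons of a mutant with its control, from blue (lower) to red (higher), with colours saturating at 1.5, and a dot where the adjusted p was under 0.05. Scd1 and Scd2 are blue in the knockouts and deletions and red under overexpression, and the sterol enzymes show no common direction.

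Of 47 other genes of sterol, isoprenoid and fatty acid metabolism, all were tested. In the receptor knockouts 1 rose in each group, and it was Nus1, a subunit of the dolichol-making prenyltransferase, with log2 fold changes of 0.74 in Rarα-KO, 0.78 in Rxrα-KO and 0.67 in RARX-DKO cells. Of all genes 0.389% rose and 0.255% fell in Rarα-KO cells. The shares were 1.28% and 1.2% in Rxrα-KO and 1.05% and 1.19% in RARX-DKO cells. Acss2, which makes acetyl-CoA from acetate, had 40.5 and 34.4 CPM in Rxrα-KO cells, against 64.2 and 71.9 in WT-RARX cells, and fell by 0.86. Por, the reductase that feeds electrons to CYP51, fell by 0.72 in RARX-DKO cells. These knockout calls also rest on single libraries. Nus1 missed the threshold in Rarα-KO and RARX-DKO cells whichever library was left out, and in Rxrα-KO cells, as did Acss2, without WT-RARX replicate 1, WT-RARX replicate 2 or Rxrα-KO replicate 2. Por missed it without either WT-RARX library or RARX-DKO replicate 2. Under overexpression 19 rose and 2 fell in Rarα-OE cells, and 30 rose and 7 fell in Rxrα-OE cells. Of all genes 14.7% rose and 13.9% fell in Rarα-OE cells, and 30.9% rose and 29.3% fell in Rxrα-OE cells. Fads2, the delta-6 desaturase, had 37.6 and 39.3 CPM in Rarα-OE and 85.4 and 91 in Rxrα-OE cells, against 26.3 and 22.8 in V-OE cells. Its log2 fold changes were 0.65 and 1.85, beside 0.41 and 1.43 for Fads1 and 1.17 and 2.27 for Elovl7. Abcg1, a sterol exporter and known target of liver X receptors, had 10.5 and 14.6 CPM in Rxrα-OE cells, against 4.95 and 5.10 in V-OE cells, and rose by 1.34.

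In the enhancer deletions 4 of the 47 rose and 12 fell in Cyp26-E1-KO cells, and 8 rose and 8 fell in Cyp26-E2-KO cells. Of all genes 13.1% rose and 12.1% fell in Cyp26-E1-KO cells, and 9.28% rose and 8.2% fell in Cyp26-E2-KO cells. The lipoprotein receptor genes Scarb1 and Vldlr fell in both. Scarb1 had 12.7, 11.3 and 11.3 CPM in Cyp26-E1-KO and 14.9, 16.1 and 14.3 in Cyp26-E2-KO cells, against 25.5, 25.8 and 24.9 in WT-Cyp26 cells, and fell by 1.11 and 0.75 on the log2 scale. Vldlr fell by 0.95 and 1.52, and Acss2 by 0.97 and 0.43. Vldlr missed the threshold in Cyp26-E1-KO cells without WT-Cyp26 replicate 1, and Acss2 did in Cyp26-E2-KO cells without WT-Cyp26 replicate 2 or 3 or Cyp26-E2-KO replicate 2 or 3. Directly, Acss2 (0.54) and Acsl3 (0.45), an acyl-CoA synthetase, were higher in Cyp26-E2-KO than in Cyp26-E1-KO cells, and 0 of the 47 were lower. In that comparison 2.02% of all genes were higher and 2.46% lower. Acss2 missed the threshold there without Cyp26-E2-KO replicate 1 or 3.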

How the data were processed

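RNA-seq was deposited as raw read counts per gene in 3 tables, which the authors made from RA-treated cells. The submitters' processing notes name HISAT2 2.1.0, HTSeq 0.9.1, DESeq2 1.18.1 and the mm10 build without giving their roles, and the strand setting of the counting is not given in the sources used here. Counts were tested per table with edgeR 4.0.16 (R 4.3.3, limma 3.58.1): genes under the default filter with a minimum count of 10 were dropped, libraries were scaled by TMM, and the quasi-likelihood test was fitted to all groups of a table at once, with p-values adjusted over all genes tested by the Benjamini-Hochberg method and a threshold of 0.05. CPM and RPKM were computed from these counts and scaled library sizes, RPKM over the exon length of the GENCODE annotation, and log2 fold changes carry standard errors derived from the test statistic. The 95% intervals took 1.96 standard errors to each side. They ignore the degrees of freedom of the test and so are somewhat too narrow.

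The series design calls the libraries biological replicates and says no more about separate cultures, so p-values measure only the spread between these libraries. The members and gene lists were chosen with earlier results of these data known. Members past the threshold were named, and at most 3 genes of each other list, by size of change. The alternatives were DESeq2 1.42.0, other scalings, no filter, a replicate block, the compared groups alone and each library left out. Deviations of same-numbered libraries correlated at -0.214 to 0.121, so the numbers were not taken to pair libraries. Stretches of at least 100 bases and 95% identity in another gene were found for 14 members, and they covered most of the transcript of Acat2, Fdps, Fdft1 and Acaca. Coding genes overlap Mvd, Fdps, Ggps1, Fdft1, Cyp51, Tm7sf2, Srebf1 and Acaca. The 4C, ChIP and input samples were not analysed here. Results of some other pathway genes are not reported here.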

Additional observations from a re-analysis of the deposited data

How the results depend on the processing

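No called gene turned its direction under any alternative run. Of 80 calls of members, 71 were kept by DESeq2, 79 by RLE size factors, 77 by library totals, 78 without the filter and 77 with the compared groups alone. Rarα-KO against WT-RARX cells gave 1 member (Fdft1) without the filter, and Rxrα-KO against WT-RARX cells gave 2 by DESeq2, 2 by library totals, 2 with the compared groups alone and 3 without the filter. The genes called in all were 551 in that Rarα-KO run, against 106. In the Rxrα-KO runs they were 654, 428, 586 and 1084 in turn, against 407. RARX-DKO against WT-RARX cells gave 5 without the filter, and Rxrα-KO against Rarα-KO cells 2. Without the filter the genes called in all were 981 and 1840 in turn, against 368 and 885. RARX-DKO against Rarα-KO cells gave 1 by DESeq2 and 1 without the filter, beside 19 and 58 genes in all, against 2. RARX-DKO against Rxrα-KO cells gave 1 by DESeq2, 1 with the compared groups alone and 2 without the filter. There the genes called in all were 813, 30 and 1366 in turn, against 575. Rarα-OE cells gave 6 by DESeq2, against 11 by edgeR, while the genes called in all were 2766, against 4829. Cyp26-E2-KO against WT-Cyp26 cells gave 19 with the compared groups alone (14 higher and 5 lower), against 13, while the genes called in all were 5731, against 3280. The cause was not tested. Leaving out 1 library gave 0 to 1 members in Rarα-KO, 0 to 2 in Rxrα-KO, 0 to 2 in RARX-DKO, 0 to 1 in each comparison between knockouts, 8 to 9 in Rarα-OE, 14 to 18 in Rxrα-OE, 8 to 15 in Cyp26-E1-KO, 7 to 9 in Cyp26-E2-KO and 5 to 12 between the deletions. The genes called in all then ranged from 8 to 29 in Rarα-KO, 21 to 361 in Rxrα-KO and 32 to 408 in RARX-DKO cells. For Rxrα-KO against Rarα-KO cells they were 111 to 648. For RARX-DKO cells they were 3 to 47 against Rarα-KO and 174 to 879 against Rxrα-KO cells. They ranged from 3728 to 3925 in Rarα-OE and 8765 to 9214 in Rxrα-OE cells. Rxrα-OE against Rarα-OE cells gave 13 to 15 members, beside 6391 to 7019 genes in all. In Cyp26-E1-KO cells the genes called in all were 3413 to 6217, in Cyp26-E2-KO cells 1978 to 2220 and between the deletions 310 to 1852. With the replicate block, Cyp26-E1-KO gave 12 members, against 11 without it, and the direct comparison of the deletions 6, against 7, and no other count of members moved. In these 2 comparisons the genes called in all were 4769, against 4741, and 861, against 842. Library totals shifted the median of all genes by 0.10 on the log2 scale in Rxrα-OE cells. Fdps, at 0.816 to 3.72 CPM, is the member whose values depth limits most.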
